A study of Rattus norvegicus with 15 samples.

Results

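The response of rat jaw-joint chondrocytes to mechanical stress was estimated across cells with and without knockdown of Ddx5, an RNA helicase of the DEAD-box family with roles in splicing and as a transcriptional coregulator. It rests on 12 of the 15 RNA-seq libraries of the series, 6 from stressed and 6 from unstressed cells. The cells are labelled primary chondrocytes of the temporomandibular joint (TMJ). The unstressed libraries are 3 from the control, whose label "nc" tells nothing of what the cells were given, and 3 from cells given a small interfering RNA (siRNA) against Ddx5. The stressed libraries are 3 from stressed cells without siRNA and 3 from stressed cells given the Ddx5 siRNA. Each library was placed by its label, and stress was estimated in 1 model that also held the siRNA status and the library number, which the labels repeat in every group. The 3 control siRNA libraries have no stressed partner and did not enter the comparison, so the siRNA term covers the transfection together with the knockdown. How the stress was applied and for how long is not given in the sources used here. Whether libraries of a group stem from different cultures or animals is not labelled. The p-values therefore reflect library-to-library spread only, and that spread may be technical.

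Chondrocytes sit in an avascular matrix that they build and, through secreted proteases, break down, and load on the joint reaches them through that matrix. NF-kB is a family of transcription factors held inactive by inhibitors such as the product of Nfkbia. Once released, NF-kB raises cytokines, chemokines, adhesion receptors and its own inhibitors. The hypoxia-inducible factors are marked for degradation by oxygen-dependent prolyl hydroxylases and VHL, and when stable they raise glucose transporters, glycolytic enzymes and regulators of mitochondria. Id proteins are targets of bone morphogenetic protein (BMP) signalling that hold back differentiation factors.

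Total counts ran from 14309005 to 16219775 in the 12 libraries, and 14023 of 33717 loci had enough counts to be tested. Stressed and unstressed libraries were compared as 6 pairs of the same siRNA status and number by a two-sided exact sign-flip permutation test, whose smallest possible p is 0.031. In this exact test, total count (p = 0.781), the share from mitochondrially encoded genes (p = 0.656), the share from ribosomal protein genes (p = 0.75) and the share from the 50 most abundant genes (p = 0.344) did not pass. The number of genes with at least 10 counts was higher under stress in 5 of 6 pairs (exact p = 0.0625). The Ddx5 siRNA libraries numbered 1, with and without stress, stood apart from the other libraries of their groups. Values without both are given for Hk2, Slc2a1, Hmox1 and some counts of calls. They are not given for other genes in which the stressed one stood far above, such as G0s2, Angptl4, Slc16a3 and Egln3. In bulk libraries, fewer cells of a type and less RNA per cell cannot be told apart.

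Markers of cartilage were present in part. Col11a1 (1298 to 2064 CPM), Acan (75.0 to 369 CPM), Comp (14.7 to 30.1 CPM) and Sox9 (9.14 to 28.1 CPM) were measured in each of the 12 libraries. Levels are given as CPM, counts scaled to the library total after TMM adjustment. The collagen of hyaline cartilage, Col2a1, was low (0.394 to 4.55 CPM), and Col9a1, Matn3 and Lect1 (the chondromodulin gene) did not pass the filter on low counts. The 9 fibroblast or tendon markers summed to 38612 to 82481 CPM, most of it from Col1a1, and the sum overlapped between stressed and unstressed libraries. Of the 13 leukocyte markers, Ptprc, the pan-leukocyte phosphatase, held 1 count in the 12 libraries together, and Cd163 and Tyrobp held 0. Cd14 held 5040 counts (17.0 to 42.1 CPM) and made up most of the summed markers, and Cd68 and Cd74 held 273 and 233 counts. The summed leukocyte markers ran from 21.9 to 35 CPM without stress and from 25.9 to 44 CPM with it, and none of the 4 tested passed.

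Ddx5 was examined first, because it checks the labels. Ddx5 (ENSRNOG00000030680, chromosome 10, 94980928 to 94988461, minus strand), in the deposited coordinates, whose build is not given, stood at 554, 515 and 492 CPM in the control libraries. The stressed libraries without siRNA held 364, 421 and 427 CPM. With the Ddx5 siRNA it stood at 224, 254 and 208 CPM in unstressed and 165, 243 and 195 CPM in stressed cells. Every library with the siRNA lay below every library without it. Ddx5 was also lower under stress in 6 of 6 pairs, with a log2 fold change of -0.28 (SE 0.08, edgeR adjusted p = 0.0416). That call was lost in 10 of the 12 fits that left out 1 library (adjusted p up to 0.123) and without the replicate term (adjusted p = 0.128). Cep95 on the other strand and 2 loci on the same strand overlap Ddx5, and whether counting used strand is not given in the sources used here.

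Stress raised more genes than it lowered, and raised them further. Across the 12 libraries, 822 genes rose (5.86% of those tested) and 403 fell (2.87%), 8.74% in either direction, at an adjusted p under 0.05 in edgeR's quasi-likelihood test. A change of at least 2-fold was called for 255 of the higher genes (1.82%) and 18 of the lower ones (0.128%). Of the 822 called higher, 768 were higher in all 6 pairs, and of the 403 called lower, 380 were lower in all 6. Over all genes tested, 11.4% were higher and 10.2% lower in all 6. The calls rest on the same libraries and favour such genes, so this describes the called genes and is no further support. The median log2 fold change over all genes was -0.00686. In what follows a rise or fall is a log2 fold change with its SE, p-values are adjusted over all genes tested in edgeR, and levels given as from and to are means of the 6 unstressed and 6 stressed libraries. Without the replicate term 456 genes rose and 130 fell, and with the number as a block within each siRNA status 1453 rose and 1014 fell. Without stress replicate 2, whose omission left the fewest calls, 518 rose and 182 fell. The lower genes numbered 219 to 256 without any of control replicate 2, stress replicates 1 and 3, Ddx5 siRNA replicates 2 and 3 and the siRNA plus stress replicate 1, each taken alone. Without both Ddx5 siRNA libraries numbered 1 the counts were 1017 and 588. Of the 822 higher calls, 460 held in every fit that left out 1 library, and 454 held without the replicate term. Of the 403 lower calls, 145 and 130 held. Without both Ddx5 siRNA libraries numbered 1, 735 higher and 370 lower calls held. In 309 of the 822 and 84 of the 403, the 6 stressed and 6 unstressed libraries did not overlap.

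**Figure D1:**
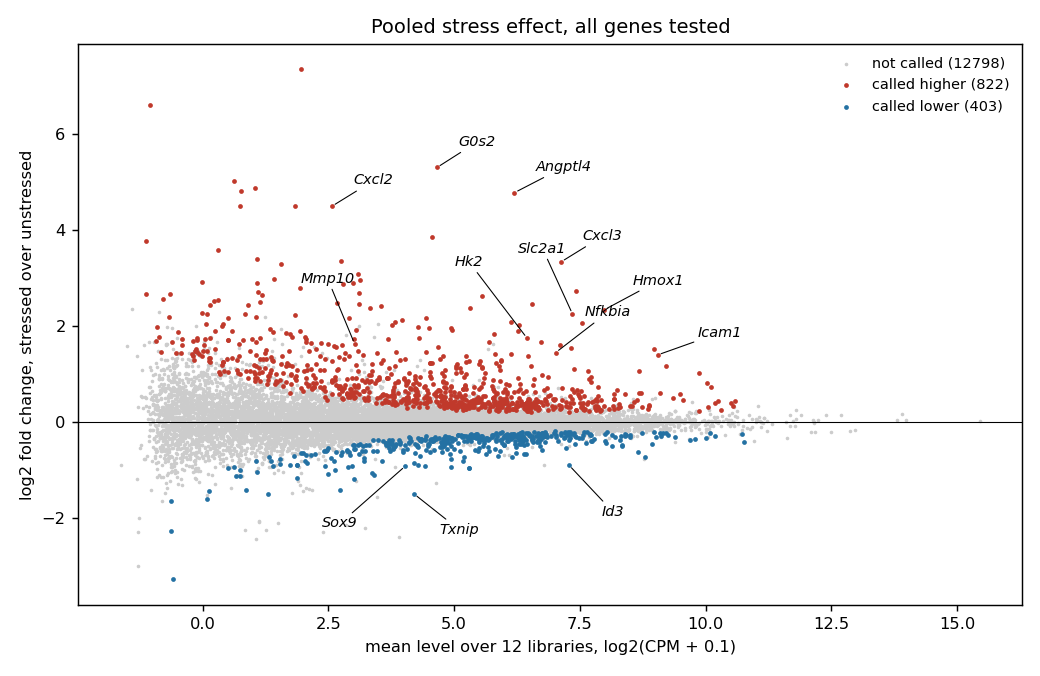
Log2 fold change of stressed over unstressed cells (y axis) against the mean level over 12 libraries (x axis, log2 of CPM plus 0.1) for the 14023 genes tested, with the 822 called higher in red and the 403 called lower in blue. The red points reach further from 0 than the blue ones, and G0s2, Angptl4, Cxcl2 and Cxcl3 lie far above the labelled falls Txnip, Sox9 and Id3.

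Icam1, Nfkbia, Hk2, Mmp10 and Id3 were taken as markers of the response. They were given as genes that mark the stress effect, so their values describe it and are no independent support. Icam1 (ENSRNOG00000020679, chromosome 8, 22035256 to 22047059, plus strand), the adhesion receptor that holds leukocytes, stood at 292, 285 and 363 CPM in the control against 859, 747 and 876 CPM in stressed cells. With the Ddx5 siRNA it stood at 252, 295 and 260.1 CPM without and 709, 737 and 675 CPM with stress. The 6 stressed libraries lay above all 6 unstressed libraries, and the log2 fold change was 1.398 (SE 0.08, adjusted p = 8.57e-08). Nfkbia (ENSRNOG00000007390, chromosome 6, 76267228 to 76270457, minus strand) encodes the NF-kB inhibitor IkB-alpha and is itself an NF-kB target. It stood at 83.2, 75.7 and 92.7 CPM in the control against 180.2, 189 and 188 CPM in stressed cells, and with the siRNA at 48.2, 66.5 and 56.4 CPM and 218, 177 and 181 CPM. The groups did not overlap, and it rose by 1.45 (log2, SE 0.13, adjusted p = 9.63e-05). Hk2 (ENSRNOG00000006116, chromosome 4, 113559427 to 113610243, minus strand), the hexokinase that commits glucose to metabolism in growing and hypoxic cells, stood at 30.6, 38.8 and 41.0 CPM in the control against 100.5, 136 and 98.7 CPM in stressed cells. With the siRNA the values were 40.7, 40 and 45.2 CPM and 242, 109 and 126 CPM. All stressed libraries lay above all unstressed ones, with the siRNA plus stress library numbered 1 far above the rest. Hk2 rose by 1.75 (log2, SE 0.22, adjusted p = 0.00261), and by 1.55 without both siRNA libraries numbered 1.

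Mmp10 (ENSRNOG00000032832, chromosome 8, 5734348 to 5742243, plus strand), the proteoglycan-cutting stromelysin-2, stood at 4.76, 5.51 and 4.07 CPM in the control against 14.3, 12.3 and 14.7 CPM in stressed cells, and with the siRNA at 2.22, 3.13 and 4.09 CPM and 10.6, 9.77 and 10.9 CPM. It rose by 1.62 (log2, SE 0.15, adjusted p = 1.25e-05), again without overlap, and its close relative Mmp3 may share reads with it. Id3 (ENSRNOG00000026124, chromosome 5, 154489590 to 154491223, plus strand) moved the other way, from 214, 210.0 and 272 CPM in the control to 106, 105 and 144 CPM in stressed cells. With the siRNA it stood at 160.3, 179 and 183 CPM and 107, 80.4 and 109 CPM. Every stressed library lay below every unstressed one, and the log2 fold change was -0.90 (SE 0.08, adjusted p = 4.5e-06).

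**Figure D2:**
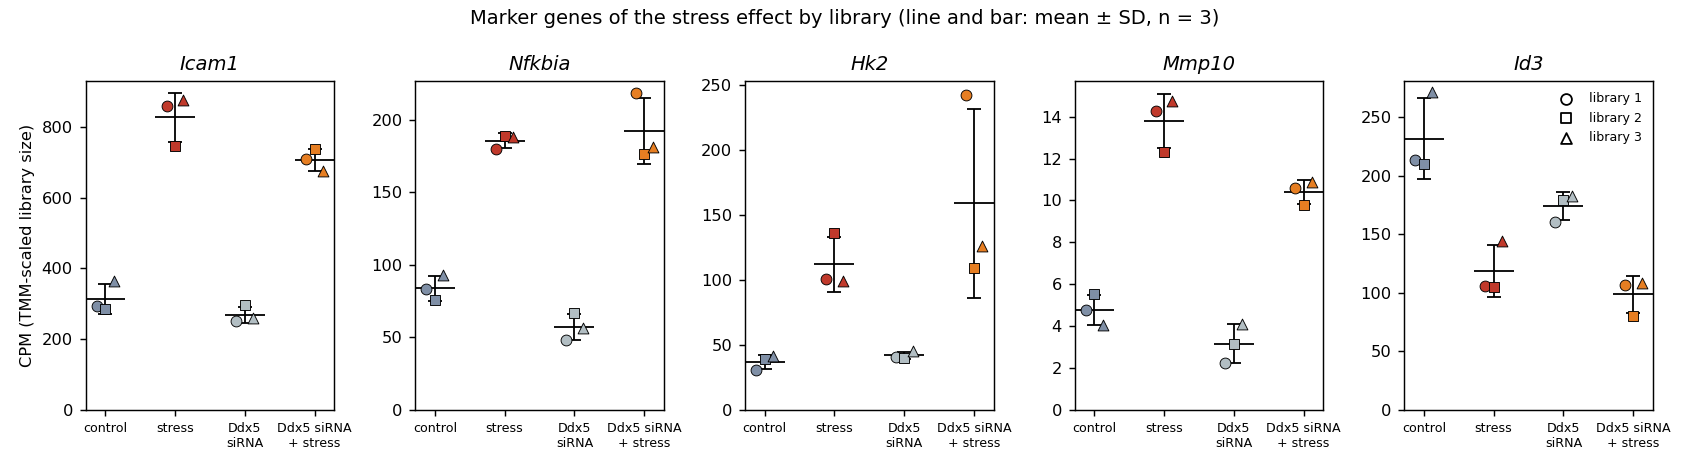
Level in CPM (y axis, linear, from 0) of Icam1, Nfkbia, Hk2, Mmp10 and Id3 in each of 12 libraries, by group (x axis), with the symbol giving the library number and the line and bar the mean and SD of 3 libraries. Icam1, Nfkbia, Hk2 and Mmp10 are higher, and Id3 lower, in all 6 stressed libraries than in any of the 6 unstressed ones, and Hk2 reaches 242, 109 and 126 CPM in the libraries with siRNA and stress.

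Subunits and inhibitors of NF-kB rose together. Of 20 tested, 16 rose and 0 fell, beside 5.86% and 2.87% of all tested genes. The median log2 fold change of the list was 0.63. Among the inhibitors, Tnip1, which restrains the pathway through ubiquitin binding, rose by 1.06 (log2, SE 0.07, adjusted p = 2.92e-07). Its levels were 282, 267 and 278 CPM in the control, 699, 596 and 611 CPM in stressed cells, 283, 244 and 229.6 CPM with the siRNA and 512, 461 and 450.0 CPM with both. Stressed and unstressed libraries did not overlap. Tnfaip3 (A20, a ubiquitin-editing enzyme that ends the signal) rose by 1.001 (log2, SE 0.16, adjusted p = 0.004), Nfkbie by 0.77 (log2, SE 0.08) and Zc3h12a, a ribonuclease that degrades inflammatory transcripts, by 0.48 (log2, SE 0.08). Birc3, a ubiquitin ligase of the receptor complex and an NF-kB target, went from 7.81 to 31.2 CPM (log2 1.98, SE 0.14, adjusted p = 4.94e-07). The adaptor Traf1 rose by 1.29 (log2, SE 0.13) and the coactivators Bcl3 and Nfkbiz by 1.31 (log2, SE 0.14) and 0.57 (log2, SE 0.10). The subunits Nfkb2, Nfkb1, Relb and Rela rose by 0.90 (log2, SE 0.06), 0.55 (log2, SE 0.06), 0.50 (log2, SE 0.08) and 0.31 (log2, SE 0.07), and Rel did not pass (log2 0.33, SE 0.19, adjusted p = 0.313). Of the 16 calls, 15 held in every fit that left out 1 library, the exception being Nfkbib (adjusted p up to 0.0781). Without the replicate term 14 held, the others being Rela (adjusted p = 0.107) and Nfkbib (adjusted p = 0.101). Over all 822 higher calls, these numbers were 460 and 454.

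The NF-kB binding consensus (10 letters, searched on both strands, overlapping matches counted) was looked up in promoters from RefSeq, build GRCr8, which hold 250 bases before and 50 after each gene's start. It occurred in 5.06% of 27457 promoters and in 6.7% of the 9228 tested genes that had one. Among called genes with a promoter it occurred in 73 of 581 that rose (12.6%) and in 10 of 266 that fell (3.76%). Of the 16 NF-kB genes that rose, 13 had a promoter and 7 of these held a match. Those 7 were Tnip1, Nfkb2, Nfkb1, Nfkbia, Tnfaip3, Nfkbiz and Bcl3. Over all 20 tested, called or not, 16 had a promoter and 8 of these held a match, Rel among them. A match is a description of the sequence and not a shown binding site, and no test was made of these shares. The windows of Icam1, Hk2, Mmp10 and Id3 held no match. The promoters below were chosen after the matches were seen, because their genes were among the clearest rises, and capitals mark the matches. They lie at chr6:78597023-78597322 (minus strand), chr14:17467206-17467505 (minus strand, with a pair of overlapping matches) and chr2:206742734-206743033 (minus strand) in GRCr8.
Nfkbia: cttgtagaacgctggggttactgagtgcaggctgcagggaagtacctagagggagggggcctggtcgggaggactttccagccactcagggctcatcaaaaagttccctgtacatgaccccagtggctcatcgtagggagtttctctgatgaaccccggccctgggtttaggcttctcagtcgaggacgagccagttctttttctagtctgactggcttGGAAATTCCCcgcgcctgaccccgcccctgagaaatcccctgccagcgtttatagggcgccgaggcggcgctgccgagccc
Cxcl2: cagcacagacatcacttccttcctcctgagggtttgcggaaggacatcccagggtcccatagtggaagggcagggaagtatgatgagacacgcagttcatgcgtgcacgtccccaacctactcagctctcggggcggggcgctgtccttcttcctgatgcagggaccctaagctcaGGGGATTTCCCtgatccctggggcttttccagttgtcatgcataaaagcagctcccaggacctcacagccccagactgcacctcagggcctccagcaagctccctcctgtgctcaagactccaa
Vcam1: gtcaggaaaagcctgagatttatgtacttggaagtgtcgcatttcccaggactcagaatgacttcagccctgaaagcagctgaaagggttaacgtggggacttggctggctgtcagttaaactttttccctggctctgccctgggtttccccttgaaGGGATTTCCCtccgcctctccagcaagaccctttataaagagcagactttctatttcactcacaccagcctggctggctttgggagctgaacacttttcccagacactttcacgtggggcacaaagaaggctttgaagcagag
The match starts at base 220 of the Nfkbia window, at bases 177 and 178 of the Cxcl2 window and at base 158 of the Vcam1 window, counted from 1 at the 5′ end.

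Chemokines and colony-stimulating factors, which draw in and sustain leukocytes, rose most as a group. Of 16 tested, 13 rose and 0 fell, beside 5.86% and 2.87% of all tested genes. The median log2 fold change of the list was 1.62. The neutrophil attractant Cxcl2 stood at 0.482, 0.59 and 0.304 CPM in the control against 8.80, 11.6 and 4.25 CPM in stressed cells. With the siRNA it stood at 0.269, 0.502 and 0.692 CPM and 13.1, 14.1 and 15.5 CPM. Each stressed library lay above each unstressed one, and the log2 fold change was 4.50 (SE 0.28, adjusted p = 2.92e-07). The related Cxcl3 stood at 24.96, 33.97 and 14.9 CPM in the control against 255, 319 and 149 CPM in stressed cells, and with the siRNA at 36.8, 19.9 and 21.9 and 319, 216 and 266 CPM, again without overlap (log2 3.34, SE 0.23, adjusted p = 0.00012). Cxcl1 rose by 0.81 (log2, SE 0.10), and these close relatives may share reads. Cx3cl1, a membrane-bound chemokine, went from 1.95 to 13.8 CPM (log2 2.89, SE 0.15, adjusted p = 8.57e-08). Of the monocyte attractants, Ccl2 went from 615 to 1247 CPM (log2 1.02, SE 0.10, adjusted p = 3.2e-05), Ccl7 from 369 to 824 CPM and the T cell attractant Ccl5 from 2.95 to 44.1 CPM (log2 3.86, SE 0.41, adjusted p = 0.00142). Ccl20 rose by 2.06 (log2, SE 0.18), Cxcl6 by 2.72 (log2, SE 0.33) and Cxcl16 by 1.15 (log2, SE 0.14). Cxcl6 differed widely between libraries of a group (11.1 to 173 CPM without stress) and did not pass without the replicate term (adjusted p = 0.168). The colony-stimulating factors Csf2, Csf1 and Csf3 rose by 3.36 (log2, SE 0.25), 0.73 (log2, SE 0.08) and 2.87 (log2, SE 0.65). The call for Csf3 was lost in 9 of the 12 fits that left out 1 library (adjusted p up to 0.0891). Cxcl12 (log2 0.25, SE 0.13, adjusted p = 0.289), Cxcl10 (log2 0.32, SE 0.25, adjusted p = 0.481) and Cxcl14 (log2 0.68, SE 0.31, adjusted p = 0.196) did not pass. Of the 13 calls, 12 held without both siRNA libraries numbered 1, beside 735 of all 822 higher calls. Of the 8 called chemokine genes with a promoter, 5 held the NF-kB consensus. Of the 11 tested members with a promoter, called or not, 6 held it, Cxcl10 among them.

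Among the leukocyte adhesion receptors, 2 of 8 rose and 1 fell, beside 5.86% and 2.87% of all tested genes. Vcam1, which binds integrins of lymphocytes and monocytes, stood at 3.08, 1.90 and 1.396 CPM in the control against 24.6, 19.8 and 13.9 CPM in stressed cells, and with the siRNA at 1.01, 1.88 and 1.26 CPM and 9.20, 11.5 and 11.8 CPM. Stressed libraries lay above unstressed ones throughout (log2 3.09, SE 0.20, adjusted p = 2.92e-07). Alcam fell by 0.30 (log2, SE 0.07, adjusted p = 0.0155, which became 0.0509 without control replicate 2). Icam1 was the other riser.

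Cytokines and their receptors moved less evenly. Of 23 tested, 5 rose and 1 fell, with a median of 0.23, beside 5.86% and 2.87% of all tested genes. Il1a, which starts the interleukin-1 response, ranged over 0.121 to 2.35 CPM without and 0.837 to 12.5 CPM with stress. These ranges overlapped, and Il1a was higher in 6 of 6 pairs (log2 2.79, SE 0.47, adjusted p = 0.00557). Il13ra1 rose by 0.60 (log2, SE 0.11, adjusted p = 0.00383). The calls for Il4r (log2 0.32), Lif (log2 0.80), Il6 (log2 0.63) and the lower Il11ra1 (log2 -0.23) were each lost without any of several libraries (adjusted p up to 0.0832, 0.112, 0.11 and 0.116). The main receptor Il1r1 (log2 0.27, SE 0.12, adjusted p = 0.175) and the antagonist Il1rn (log2 0.024, SE 0.25, adjusted p = 0.967) did not pass.

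Of 13 genes for prostaglandin and nitric oxide synthesis, 3 rose and 0 fell, beside 5.86% and 2.87% of all tested genes. Gch1, which makes the cofactor of nitric oxide synthases, went from 5.76 to 16.04 CPM (log2 1.44, SE 0.19, adjusted p = 0.000469), and Ptges, the inducible prostaglandin E synthase, rose by 1.45 (log2, SE 0.29, adjusted p = 0.0148). The secreted phospholipase Pla2g2a rose by 0.84 (log2, SE 0.18, adjusted p = 0.0223), a call lost in 6 of the 12 fits that left out 1 library. Ptgs2 (COX-2), the inducible cyclooxygenase, stood at 101 to 378 CPM without and 189 to 458 CPM with stress and did not pass (log2 0.23, SE 0.30, adjusted p = 0.71). Within the interferon and antigen presentation list, 6 of 25 rose and 0 fell (median 0.35). The risers were the peptide transporter Tap1 (log2 0.41, SE 0.06, adjusted p = 0.00114), the immunoproteasome subunits Psmb8 (log2 0.48, SE 0.10), Psmb9 (log2 0.61, SE 0.13) and Psmb10 (log2 0.39, SE 0.12), the guanylate-binding protein Gbp2 (log2 0.64, SE 0.11) and the transcription factor Irf1 (log2 0.59, SE 0.12). The call for Psmb10 was lost in 9 of the 12 fits that left out 1 library. Type I interferon targets such as Ifit2 (log2 -0.21, SE 0.13, adjusted p = 0.337) and Isg15 (log2 0.49, SE 0.30, adjusted p = 0.341) did not pass. Of 10 complement genes, the brake Cd55 rose (log2 1.23, SE 0.21, adjusted p = 0.00897), and C3 did not pass (log2 0.74, SE 0.51, adjusted p = 0.438).

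Most glycolysis genes rose. Of 24 enzymes and transporters, 18 rose and 0 fell, beside 5.86% and 2.87% of all tested genes. All 24 had a positive log2 fold change, and their median was 0.52. At the entry, Slc2a1 (GLUT1, the basal glucose transporter) stood at 53.1, 45.6 and 49.8 CPM in the control against 222, 244 and 172 CPM in stressed cells. With the siRNA it stood at 70.2, 52.8 and 51.1 CPM and 616, 160.3 and 225 CPM. All stressed libraries were above all unstressed ones, the siRNA plus stress library numbered 1 highest of all (log2 2.25, SE 0.27, adjusted p = 0.00236, and 2.02 without both siRNA libraries numbered 1). Slc2a3 rose by 1.48 (log2, SE 0.28) and the second hexokinase gene Hk1 by 0.54 (log2, SE 0.09). At the committed step, the liver-type phosphofructokinase Pfkl went from 82.8 to 239 CPM (log2 1.54, SE 0.14, adjusted p = 0.000118), and Pfkfb3, which makes its activator, from 32.6 to 121 CPM (log2 1.89, SE 0.22, adjusted p = 0.00154). The muscle and platelet forms Pfkm (log2 0.20, SE 0.09, adjusted p = 0.21) and Pfkp (log2 0.34, SE 0.10, adjusted p = 0.056) did not pass.

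Enzymes of the lower pathway moved by less on the log2 scale, with Pgk1 at 0.50 (log2, SE 0.08), Eno1 at 0.44 (log2, SE 0.08), Aldoa at 0.45 (log2, SE 0.09), Pgam1 at 0.45 (log2, SE 0.09), Gpi at 0.60 (log2, SE 0.14), Gapdh at 0.32 (log2, SE 0.08) and Pkm at 0.39 (log2, SE 0.11). Tpi1 rose by 1.06 (log2, SE 0.24). Ldha, which turns pyruvate to lactate, went from 1009.8 to 1337 CPM (log2 0.40, SE 0.06, adjusted p = 0.000568), and its stressed and unstressed libraries did not overlap (971 to 1060.5 against 1179 to 1440.5 CPM). The lactate exporter Slc16a3 (MCT4) stood at 39.2, 21.0 and 15.5 CPM in the control, 199, 148 and 93.2 CPM in stressed cells, 70.2, 19.2 and 16.5 CPM with the siRNA and 315, 74.2 and 110.3 CPM with both. It rose by 2.46 (log2, SE 0.24, adjusted p = 0.000631), and Slc16a1 by 0.47 (log2, SE 0.11). Pdk1, the kinase that keeps pyruvate out of mitochondria, went from 13.9 to 33.4 CPM (log2 1.23, SE 0.12, adjusted p = 1.71e-05). Of the 18 calls, 13 held in every fit that left out 1 library and 13 without the replicate term. Gapdh, Gpi and Pkm were among those lost in the former (adjusted p up to 0.0779, 0.0885 and 0.134), as were Slc16a1 and Tpi1 (0.0507 and 0.0566). Over all 822 higher calls, 460 held in every fit that left out 1 library and 454 without the replicate term.

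Hypoxia-inducible genes outside glycolysis had the second highest median, 1.05. Of 26 tested, 19 rose and 0 fell, beside 5.86% and 2.87% of all tested genes. Higd1a, a mitochondrial protein that supports respiration, stood at 46.5, 36.1 and 33.3 CPM in the control against 105, 93.8 and 93.2 CPM in stressed cells. With the siRNA the values were 46.3, 35.2 and 32.6 CPM and 152, 74.5 and 95.6 CPM. The groups did not overlap (log2 1.41, SE 0.09, adjusted p = 2.92e-07). The histone demethylase Kdm3a went from 22.7 to 55.4 CPM (log2 1.27, SE 0.12, adjusted p = 2.95e-05) and Ankrd37 from 1.82 to 10.7 CPM (log2 2.48, SE 0.25, adjusted p = 3.83e-05). Bnip3, which marks mitochondria for removal, rose by 2.02 (log2, SE 0.20, adjusted p = 0.000486) and Bnip3l by 0.31 (log2, SE 0.07). Egln3, the prolyl hydroxylase that hypoxia induces, was near the floor without stress (0 to 1.01 CPM) and at 1.45 to 25.6 CPM with it (log2 4.49, SE 0.51, adjusted p = 0.000282). The carbonic anhydrase Car12 held 9 counts in the 6 unstressed libraries together and 355 in the stressed ones. Car9 rose by 0.95 (log2, SE 0.21), the stanniocalcins Stc1 and Stc2 by 2.38 (log2, SE 0.25) and 1.02 (log2, SE 0.15), Ndrg1 by 2.63 (log2, SE 0.42), Hilpda by 2.13 (log2, SE 0.31) and the angiogenic factor Vegfa by 0.66 (log2, SE 0.17). Hmox1, the haem oxygenase, stood at 76.8, 58.5 and 33.1 CPM in the control, 278, 341 and 134 CPM in stressed cells, 125, 83.4 and 67.1 CPM with the siRNA and 1318, 248 and 274 CPM with both. The siRNA plus stress library numbered 1 stood far above the others. Hmox1 rose by 2.34 (log2, SE 0.34, adjusted p = 0.00627), and by 2.03 without both siRNA libraries numbered 1. Vegfa, Ero1l, Ddit4, Car9 and Bnip3l lost their calls without at least 1 library (adjusted p up to 0.133, 0.125, 0.0657, 0.0738 and 0.0563).

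Of the 5 oxygen-sensing factors, Vhl (log2 0.50, SE 0.08, adjusted p = 0.00133) and Epas1, which encodes HIF-2-alpha (log2 0.33, SE 0.08, adjusted p = 0.0151), rose. Of all tested genes, 5.86% rose. The transcript of Hif1a did not pass (log2 0.12, SE 0.10, adjusted p = 0.508), nor did those of its partner Arnt (log2 -0.032, SE 0.10, adjusted p = 0.88) and its inhibitor Hif1an (log2 -0.22, SE 0.18, adjusted p = 0.472). The core of the hypoxia response element, ACGTG on either strand with overlapping matches counted, occurred in 19.7% of all promoters in the table and 25.6% of the tested genes that had one. It occurred in 163 of 581 called risers with a promoter (28.1%) and in 66 of 266 called fallers (24.8%). Of the called hypoxia genes with a promoter, 10 of 14 held it, and of the called glycolysis genes 8 of 16. Over all tested members with a promoter, called or not, the shares were much the same, 14 of 21 and 11 of 22. The promoters of Ankrd37 (chr16:53001257-53001556, plus strand, 4 matches) and Pdk1 (chr3:77113264-77113563, plus strand, 2 matches) are shown with the core in capitals, again chosen after the matches were seen. Coordinates are in GRCr8 and the sequences are RefSeq's.
Ankrd37: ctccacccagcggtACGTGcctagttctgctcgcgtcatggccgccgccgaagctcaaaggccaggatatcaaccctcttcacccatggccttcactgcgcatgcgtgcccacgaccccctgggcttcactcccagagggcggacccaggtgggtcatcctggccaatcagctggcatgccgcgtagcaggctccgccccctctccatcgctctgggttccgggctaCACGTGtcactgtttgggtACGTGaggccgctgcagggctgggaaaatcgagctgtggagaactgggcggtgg
Pdk1: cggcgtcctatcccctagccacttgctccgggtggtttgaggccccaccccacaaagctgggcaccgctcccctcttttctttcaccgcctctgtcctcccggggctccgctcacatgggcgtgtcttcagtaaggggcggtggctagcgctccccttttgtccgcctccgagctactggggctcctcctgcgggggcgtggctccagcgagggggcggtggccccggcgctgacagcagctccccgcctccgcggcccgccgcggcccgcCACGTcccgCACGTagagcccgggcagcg
In the Ankrd37 window the matches start at bases 15, 228, 229 and 247, the middle pair overlapping, and in the Pdk1 window at bases 272 and 281.

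**Figure D3:**
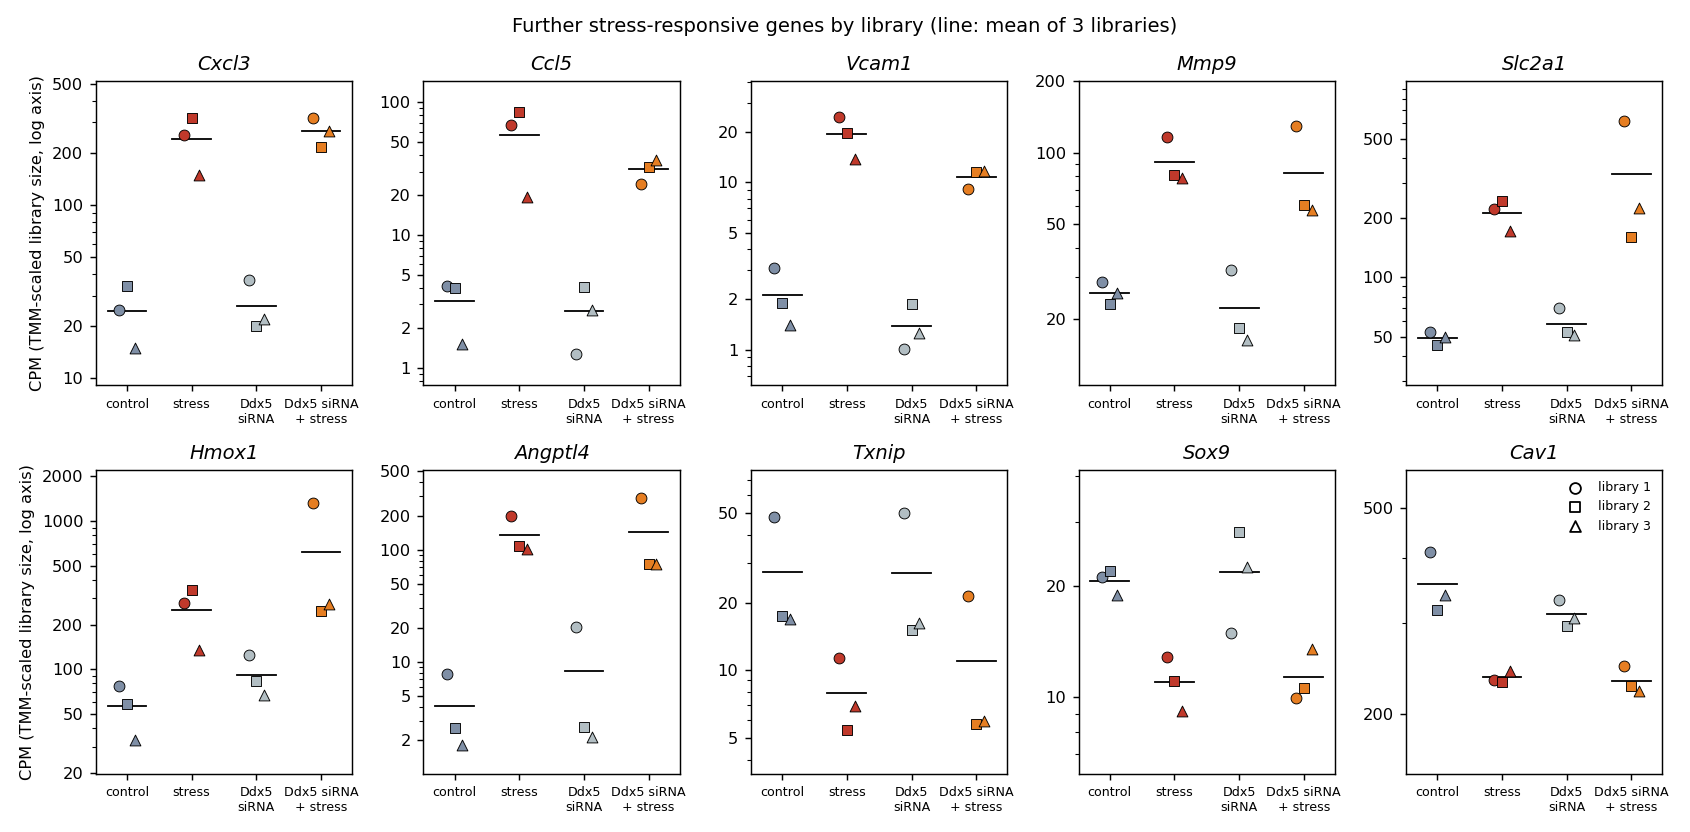
Level in CPM (y axis, log scale) of 10 further genes in each of 12 libraries by group (x axis), with the symbol giving the library number and the line the mean of 3 libraries. Cxcl3, Ccl5, Vcam1, Mmp9, Slc2a1, Hmox1 and Angptl4 are higher and Sox9 and Cav1 lower in all 6 stressed libraries than in any unstressed one, whereas for Txnip the stressed libraries with siRNA, at 21.4, 5.75 and 5.92 CPM, overlap the unstressed ones through the library numbered 1.

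Genes of fat storage and of fatty acid use also rose. Of 18 lipid storage genes and targets of the fatty acid sensors called PPARs, 8 rose and 1 fell (median 0.54). Of all tested genes, 5.86% rose and 2.87% fell. G0s2, an inhibitor of the lipase that empties lipid droplets, stood at 2.53, 1.64 and 0.304 CPM in the control against 47.3, 62.1 and 24.4 CPM in stressed cells. With the siRNA it stood at 2.76, 0.564 and 0.252 CPM and 115, 20.5 and 24.4 CPM. The groups were far apart (log2 5.30, SE 0.47, adjusted p = 0.000566), and it was the largest rise among the genes that met the naming rule. Angptl4, a secreted inhibitor of lipoprotein lipase, stood at 7.78, 2.56 and 1.82 CPM in the control against 199, 108 and 102 CPM in stressed cells, and with the siRNA at 20.4, 2.63 and 2.14 CPM and 286, 74.7 and 74.4 CPM. Its groups did not overlap either (log2 4.78, SE 0.36, adjusted p = 0.000254). Cpt1a, the gatekeeper of mitochondrial fatty acid oxidation, went from 24.96 to 79.0 CPM (log2 1.67, SE 0.10, adjusted p = 2.09e-07). Pdk4 rose by 2.53 (log2, SE 0.45, adjusted p = 0.00254), and the droplet coats Plin2 and Plin3 by 0.53 (log2, SE 0.09) and 0.61 (log2, SE 0.10). Acaa2 rose by 0.48 (log2, SE 0.09) and the lipase Lipe by 1.04 (log2, SE 0.28), while lipoprotein lipase, Lpl, fell by 0.49 (log2, SE 0.13). The calls for Lipe and Lpl were lost without at least 1 library (adjusted p up to 0.0918 and 0.0766). Txnip, which restrains glucose uptake, fell furthest of the genes that met the naming rule. It stood at 47.9, 17.5 and 16.8 CPM in the control against 11.3, 5.41 and 6.95 CPM in stressed cells, and with the siRNA at 49.9, 15.1 and 16.2 CPM and 21.4, 5.75 and 5.92 CPM. The libraries numbered 1 were the highest of each group, and the stressed one with siRNA lay among the unstressed libraries, but each of the 6 pairs fell (log2 -1.50, SE 0.13, adjusted p = 6.96e-06, and adjusted p = 0.121 without the replicate term).

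Some matrix-degrading proteases rose, beside 5.86% of all tested genes called higher and 2.87% called lower. Of 12 matrix metalloproteinases tested, 4 rose and 0 fell. Each of these 4 calls held in every fit that left out 1 library and without the replicate term. Over all 822 higher calls, 460 held in every such fit and 454 without that term. The gelatinase Mmp9 stood at 28.6, 23.2 and 25.7 CPM in the control against 116, 80.7 and 78.1 CPM in stressed cells, and with the siRNA at 32.2, 18.3 and 16.4 CPM and 129, 60.1 and 57.6 CPM. The groups did not overlap (log2 1.82, SE 0.11, adjusted p = 2.92e-07). The stromelysin Mmp3 went from 48.8 to 128 CPM (log2 1.37, SE 0.15, adjusted p = 0.000568), and the collagenase Mmp13, which cleaves type II collagen, from 0.591 to 3.74 CPM (log2 2.64, SE 0.36, adjusted p = 0.000367). The broadly expressed Mmp2 (log2 0.028, SE 0.09, adjusted p = 0.884) and Mmp14 (log2 0.057, SE 0.11, adjusted p = 0.812) did not pass. Among 15 ADAMTS proteases, Adamts15 (log2 1.09, SE 0.19, adjusted p = 0.002) and Adamts10 (log2 0.29, SE 0.07, adjusted p = 0.0188) rose, the latter lost in 2 fits that left out 1 library. Adamts1 fell from 557 to 336 CPM (log2 -0.74, SE 0.15, adjusted p = 0.0141). The aggrecanases Adamts4 (log2 0.90, SE 0.33, adjusted p = 0.127) and Adamts5 (log2 0.10, SE 0.20, adjusted p = 0.805) did not pass, and neither did any of 11 protease inhibitors, such as Timp1 (log2 0.23, SE 0.14, adjusted p = 0.365).

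Of 16 genes of cartilage matrix and chondrocyte identity, 0 rose and 1 fell, beside 5.86% and 2.87% of all tested genes. The faller was Sox9, the transcription factor that drives the cartilage programme. It stood at 21.2, 22.04 and 19.0 CPM in the control against 12.8, 11.1 and 9.14 CPM in stressed cells, and with the siRNA at 14.9, 28.1 and 22.6 CPM and 9.92, 10.6 and 13.5 CPM. Every stressed library lay below every unstressed one (log2 -0.92, SE 0.14, adjusted p = 0.000935). Its matrix targets did not pass, with Acan at -0.40 (log2, SE 0.20, adjusted p = 0.269), Col2a1 at -0.30 (log2, SE 0.33, adjusted p = 0.628) and Hapln1 at -0.80 (log2, SE 0.24, adjusted p = 0.0566). In the hypertrophy and mineralization list, 3 of 11 rose and 3 fell. The osteogenic regulators Runx2 (log2 -0.57, SE 0.09, adjusted p = 0.000843) and Sp7 (log2 -1.43, SE 0.33, adjusted p = 0.0139) fell, as did the pyrophosphate transporter Ankh (log2 -0.25, SE 0.07, adjusted p = 0.0303). Runx1 (log2 0.42, SE 0.10, adjusted p = 0.0181), Runx3 (log2 0.51, SE 0.13, adjusted p = 0.0222) and the bone sialoprotein Ibsp (log2 1.88, SE 0.32, adjusted p = 0.00175) rose. Ibsp overlapped between groups (0.182 to 3.56 CPM against 0.386 to 11.0 CPM) and did not pass without the replicate term (adjusted p = 0.386). Sp7, Ankh, Runx1 and Runx3 lost their calls without at least 1 library (adjusted p up to 0.0554, 0.0897, 0.0516 and 0.0612). Of 22 fibroblastic matrix genes, 0 rose and 1, Eln, fell (log2 -0.56, SE 0.16, adjusted p = 0.0437, lost in 9 of 12 fits that left out 1 library). Col1a1 (log2 0.025, SE 0.12, adjusted p = 0.927) and Fn1 (log2 0.16, SE 0.13, adjusted p = 0.502) did not pass.

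Id1, Id3, Id4 and 2 other genes of BMP signalling fell. Of 26 tested genes of the pathway, 5 rose and 5 fell, beside 5.86% and 2.87% of all tested genes. Besides Id3, Id4 stood at 48.8, 40.7 and 52.1 CPM in the control against 17.5, 20.6 and 26.8 CPM in stressed cells, and with the siRNA at 29.8, 35.0 and 34.5 CPM and 16.5, 18.8 and 25.4 CPM. Its groups did not overlap (log2 -0.94, SE 0.11, adjusted p = 7.52e-05). Id1 stood at 57.0, 61.6 and 72.4 CPM and 21.1, 31.6 and 41.1 CPM without siRNA and at 19.6, 50.3 and 52.3 CPM and 17.7, 19.3 and 28.8 CPM with it. The Id1 groups overlapped, since the unstressed siRNA library numbered 1 was low (log2 -0.96, SE 0.15, adjusted p = 0.00199, and adjusted p = 0.0516 without the replicate term). Id2 did not pass (log2 0.094, SE 0.17, adjusted p = 0.785). Atoh8 (log2 -0.64, SE 0.12, adjusted p = 0.00349) and the decoy receptor Bambi (log2 -0.92, SE 0.20, adjusted p = 0.00998) fell too, Atoh8 not without the replicate term (adjusted p = 0.419). The ligand Bmp6 (log2 0.85, SE 0.11, adjusted p = 0.000323) and the receptor Acvrl1 (log2 0.39, SE 0.07, adjusted p = 0.00221) rose. So did the joint ligand Gdf5 (log2 1.75) and the antagonist Grem1 (log2 0.26), whose calls were lost without at least 1 library (adjusted p up to 0.104 and 0.13).

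The TGF-beta, IGF and Wnt lists stand beside 5.86% of all tested genes called higher and 2.87% called lower. In the TGF-beta list, 2 of 19 rose and 1 fell. The co-receptor Tgfbr3 rose (log2 0.69, SE 0.10, adjusted p = 0.000455), the signal transducer Smad3 rose (log2 0.31, SE 0.08, adjusted p = 0.022, adjusted p up to 0.0692 with 1 library left out) and the ligand Tgfb2 fell (log2 -0.47, SE 0.08, adjusted p = 0.00165). Of 14 IGF genes, 3 rose and 1 fell. Igfbp5 rose by 1.38 (log2, SE 0.23, adjusted p = 0.00774), Igfbp3 by 0.95 (log2, SE 0.22, adjusted p = 0.0282) and the IGF-modulating Stc2 as above, whereas Igfbp4 fell by 0.28 (log2, SE 0.06, adjusted p = 0.012). The call for Igfbp3 was lost in 5 fits that left out 1 library. Of 16 Wnt genes, 0 rose and 1, Wnt4, fell (log2 -0.66, SE 0.19, adjusted p = 0.046, lost in 11 of 12 such fits).

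Genes often read as signs of stretch stand beside 8.74% of all tested genes called in either direction. Of 21 YAP partners and targets, 2 were called. Lats2 rose (log2 0.33, SE 0.06, adjusted p = 0.00404) and Wisp1 (CCN4) fell (log2 -0.53, SE 0.08, adjusted p = 0.00082). The widely used targets Ctgf (log2 -0.17, SE 0.10, adjusted p = 0.31), Cyr61 (log2 -0.27, SE 0.13, adjusted p = 0.232) and Ankrd1 (log2 -0.86, SE 0.30, adjusted p = 0.096) did not pass. Among 16 stretch-sensitive channels and caveolar genes, 2 rose and 3 fell. Cav1, the coat protein of caveolae, stood at 410.1, 318 and 339 CPM in the control against 233, 231 and 242 CPM in stressed cells, and with the siRNA at 332, 295 and 307 CPM and 247, 227 and 222 CPM. The groups did not overlap (log2 -0.51, SE 0.06, adjusted p = 0.000169). The channels Trpv4 (log2 0.83, SE 0.21, adjusted p = 0.0215) and Piezo1 (log2 0.45, SE 0.11, adjusted p = 0.0234, overlapped by Ctu2) rose, and the channel Kcnk2 (log2 -0.37, SE 0.10, adjusted p = 0.0297) and the caveolar Prkcdbp (log2 -0.25, SE 0.06, adjusted p = 0.0234) fell. These 4 calls were each lost without at least 1 library (adjusted p up to 0.0626, 0.0684, 0.085 and 0.0707).

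Contractile genes had the lowest median of the lists, -0.31. Of 14 tested, 0 rose and 6 fell, beside 5.86% and 2.87% of all tested genes. Vinculin, Vcl, which links actin to adhesions, stood at 572, 569.7 and 522 CPM in the control against 394, 420.4 and 382 CPM in stressed cells, and with the siRNA at 617, 543 and 569 CPM and 393, 432 and 439.9 CPM, without overlap (log2 -0.46, SE 0.06, adjusted p = 0.00029). Lmod1 (log2 -0.70, SE 0.09, adjusted p = 0.00031), Myl9 (log2 -0.48, SE 0.09, adjusted p = 0.00294), the smooth muscle actin Acta2 (log2 -0.41, SE 0.08, adjusted p = 0.00587), Tpm1 (log2 -0.28, SE 0.07, adjusted p = 0.0181) and Cnn1 (log2 -0.73, SE 0.16, adjusted p = 0.0202) fell as well. Only Vcl of these 6 passed without the replicate term, where the adjusted p of Acta2 was 0.439, of Cnn1 0.687, of Myl9 0.314, of Lmod1 0.0562 and of Tpm1 0.108. Cnn1 in particular was several times higher in the libraries numbered 1 (134, 24.0 and 20.6 CPM with the siRNA alone). Over all 403 lower calls, 130 held without the replicate term. The sum of the skeletal muscle markers ran from 23.7 to 45.2 CPM without stress and from 15.1 to 28.8 CPM with it, and of 5 tested, Myh1 (log2 -0.82, SE 0.11, adjusted p = 0.000206) and Acta1 (log2 -1.49, SE 0.34, adjusted p = 0.0122) fell. The other 3 tested did not pass, Tnnt3 (log2 0.091, SE 0.20, adjusted p = 0.827), Atp2a1 (log2 0.15, SE 0.33, adjusted p = 0.835) and Mylpf (log2 0.35, SE 0.44, adjusted p = 0.683), and Tnni2 and Myog held 2 and 0 counts in all. Their part in the result was not tested. Of the 9 fibroblast or tendon markers tested, only the tendon factor Scx was called, and it fell (log2 -0.55, SE 0.10, adjusted p = 0.00313). The other 8 did not pass, 4 of the 9 had a positive log2 fold change, and the median was -0.047. Of the immediate early genes, 4 of 26 rose and 1 fell, beside 5.86% and 2.87% of all tested genes. Fosb (log2 1.43, SE 0.22, adjusted p = 0.00111), Ier3 (log2 0.60, SE 0.10, adjusted p = 0.00194), Klf4 (log2 0.39, SE 0.07, adjusted p = 0.0045) and Nr4a3 (log2 1.18, SE 0.30, adjusted p = 0.0267) rose and Klf2 fell (log2 -0.71, SE 0.11, adjusted p = 0.000935), whereas Fos (log2 0.12, SE 0.38, adjusted p = 0.888), Egr1 (log2 -0.25, SE 0.40, adjusted p = 0.763) and Jun (log2 -0.16, SE 0.10, adjusted p = 0.351) did not pass. Nr4a3 was lost in 7 of the 12 fits that left out 1 library.

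**Figure D4:**
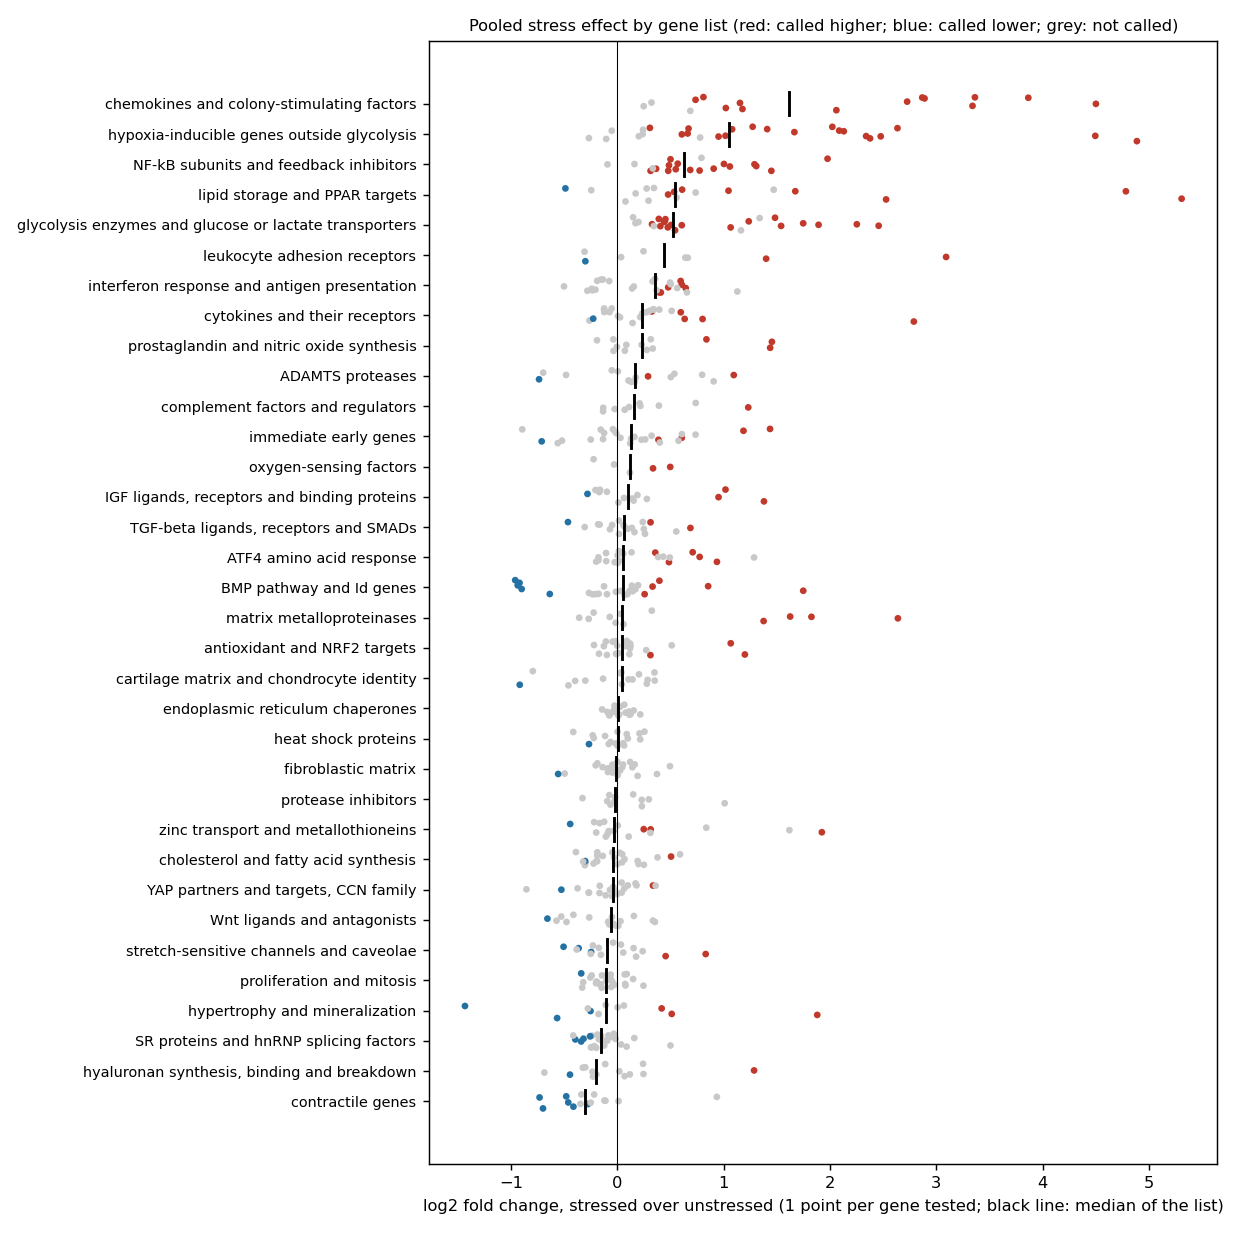
Log2 fold change of stressed over unstressed cells (x axis) for each tested member of 34 gene lists (rows), red where called higher, blue where called lower, grey otherwise, with a black line at the median of the list. Chemokines (median 1.62) and hypoxia genes (1.05) lie furthest right and contractile genes (-0.31) furthest left, and most other medians are near 0.

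Lists of general stress programmes stand beside 5.86% of all tested genes called higher and 2.87% called lower. Of 21 genes of the ATF4 amino acid response, 5 rose and 0 fell. They were Cebpb (log2 0.71, SE 0.13, adjusted p = 0.00693), Shmt2 (log2 0.48, SE 0.10, adjusted p = 0.00733), Sesn2 (log2 0.36, SE 0.08, adjusted p = 0.0103), the CHOP gene Ddit3 (log2 0.77, SE 0.15, adjusted p = 0.0128, overlapped by Mars) and the GADD34 gene Ppp1r15a (log2 0.94, SE 0.19, adjusted p = 0.0208), the last lost in 3 fits and Ddit3 in 1 fit that left out 1 library. Classical targets Asns (log2 0.0014, SE 0.09, adjusted p = 0.996) and Trib3 (log2 0.49, SE 0.16, adjusted p = 0.0959) did not pass. None of 19 endoplasmic reticulum chaperones was called, Hspa5 standing at 0.15 (log2, SE 0.08, adjusted p = 0.239). Of 17 heat shock genes only Hspb1 was called (log2 -0.27, SE 0.07, adjusted p = 0.0318), and that call was lost in 8 fits that left out 1 library. Of 22 antioxidant genes, 3 rose. Mitochondrial superoxide dismutase, Sod2, went from 133 to 271 CPM (log2 1.07, SE 0.18, adjusted p = 0.008), Aldh3a1 from 20.2 to 46.5 CPM (log2 1.20, SE 0.21, adjusted p = 0.00758) and catalase, Cat, from 54.0 to 66.9 CPM (log2 0.31, SE 0.09, adjusted p = 0.0361), whereas the NRF2 targets Nqo1 (log2 -0.11, SE 0.07, adjusted p = 0.38) and Gclm (log2 -0.02, SE 0.12, adjusted p = 0.942) did not pass. Of 17 zinc genes, Slc39a1 (log2 0.25), Slc39a14 (log2 0.31) and the metallothionein Mt1 (log2 1.92) rose and the exporter Slc30a1 fell (log2 -0.44), each call lost without at least 1 library (adjusted p up to 0.0735, 0.11, 0.0918 and 0.127). Of 24 genes of cholesterol and fatty acid synthesis, Srebf1 rose (log2 0.50, SE 0.10, adjusted p = 0.00654) and Nsdhl fell (log2 -0.30, SE 0.09, adjusted p = 0.0381). Of 15 hyaluronan genes, the synthase Has1 rose (log2 1.28, SE 0.27, adjusted p = 0.00865) and the hyaluronidase Tmem2 fell (log2 -0.45, SE 0.12, adjusted p = 0.0361). The calls for Cat, Nsdhl and Tmem2 were lost in 7, 8 and 8 fits that left out 1 library.

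Of 27 cell cycle genes, 0 rose and 1, the cyclin Ccnd1, fell (log2 -0.34, SE 0.08, adjusted p = 0.0154), while Mki67 (log2 0.24, SE 0.47, adjusted p = 0.806) and Top2a (log2 -0.049, SE 0.59, adjusted p = 0.974) did not pass. Of the cyclin-dependent kinase inhibitors, Cdkn2b fell from 128 to 85.2 CPM (log2 -0.59, SE 0.08, adjusted p = 0.000455), and Cdkn1a did not pass (log2 -0.15, SE 0.07, adjusted p = 0.183). The call for Ccnd1 was lost in 1 fit that left out 1 library. Over all tested genes 5.86% were called higher and 2.87% lower. Of 29 SR and hnRNP splicing factors, which work alongside RNA helicases such as Ddx5, 0 rose and 4 fell, with a median of -0.15. Srsf6 (log2 -0.32, SE 0.06, adjusted p = 0.00383), Srsf3 (log2 -0.34, SE 0.08, adjusted p = 0.0133), Srsf1 (log2 -0.40, SE 0.10, adjusted p = 0.0282) and Tra2a (log2 -0.26, SE 0.07, adjusted p = 0.046) fell, of which Srsf6 held in every fit that left out 1 library. Ddx17, the closest relative of Ddx5, did not pass (log2 0.034, SE 0.09, adjusted p = 0.86).

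The naming rule took the 12 largest rises and 12 largest falls among called genes that moved the same way in all 6 pairs. Besides those already given, the rises were the chemokine Ccl9, Smtnl2, the adenosine receptor Adora2a and Kbtbd11. Ccl9 held 7 counts in the unstressed libraries together and 265 in the stressed ones. Smtnl2 held 11 and 281. Adora2a stood at 0.0627 to 0.336 CPM without and 0.416 to 4.62 CPM with stress, and Kbtbd11 at 0.0603 to 0.629 CPM and 1.59 to 10.2 CPM, where 3 counts are 0.21 CPM in the smallest library. The falls, smaller throughout, included Nap1l2 (log2 -1.43, SE 0.32, adjusted p = 0.0121), the Wnt modulator Dact2 (log2 -1.16, SE 0.21, adjusted p = 0.00293), the chemerin receptor Cmklr1 (log2 -1.10, SE 0.15, adjusted p = 0.000357), Wscd2 (log2 -1.09, SE 0.18, adjusted p = 0.0014), the calcium pump regulator Pln (log2 -1.07, SE 0.16, adjusted p = 0.00066), the ephrin receptor Epha4 (log2 -1.04, SE 0.27, adjusted p = 0.025), Dtna (log2 -1.12, SE 0.30, adjusted p = 0.0327), Arc (log2 -0.99, SE 0.27, adjusted p = 0.0424) and the small nucleolar RNA SNORD45 (log2 -1.13, SE 0.29, adjusted p = 0.0247), which lies within Rabggtb. Epha4, Dtna, Arc, SNORD45 and Acta1 lost their calls without at least 1 library (adjusted p up to 0.0725, 0.1, 0.0929, 0.0746 and 0.0624). Nap1l2, Pln, Runx2, Bmp6, Tgfb2, Srebf1, Slc30a1, Myh1 and Scx share positions with another annotated locus, so their counts are uncertain to that extent.

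**Figure D5:**
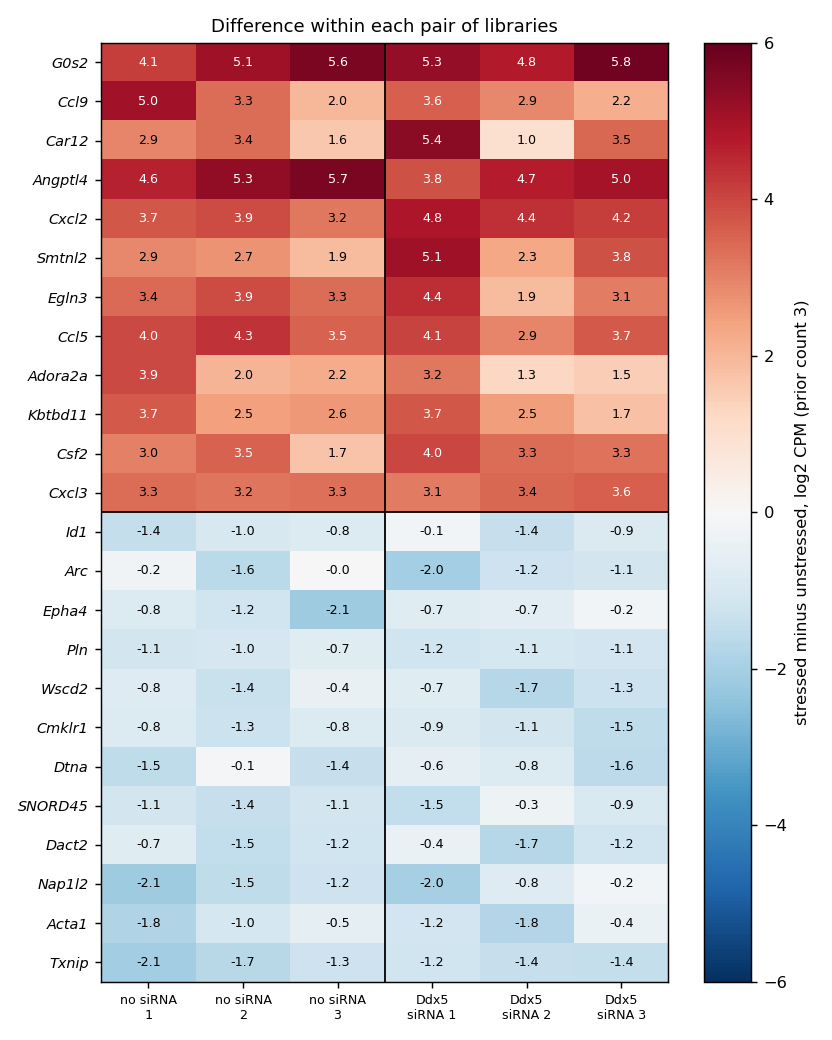
Difference of stressed minus unstressed library in log2 CPM (colour and printed value, prior count 3) in each of 6 pairs (columns, 3 without and 3 with Ddx5 siRNA) for the 12 largest rises and 12 largest falls (rows). All rises are positive and all falls negative in every pair, as the choice of genes requires, and the rises range more widely between pairs than the falls.

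A pooled effect assumes that stress acts alike with and without the Ddx5 siRNA, so the difference between both effects was tested. No gene passed (0.0% called), the smallest adjusted p was 0.997, and 560 genes (3.99%) had an unadjusted p under 0.05. limma-voom called 0, and DESeq2 called 1, the provisional locus LOC100911440. In edgeR this locus was among the 4 genes with the smallest p for that difference. In the same model 286 genes rose (2.04%) and 118 fell (0.841%) under stress without siRNA, and 206 rose (1.47%) and 33 fell (0.235%) with it. Both totals, 404 and 239, moved widely with the fit. Leaving out 1 library gave 106 to 641 calls without siRNA, lowest without control replicate 1 and highest without the siRNA plus stress replicate 1. With siRNA it gave 75 to 317, lowest without the unstressed siRNA replicate 2. With the replicate number as a block within siRNA status, the totals were 1853 and 1008. That fit called 2 genes for the difference between both effects, Hmgcs1 (log2 0.87, edgeR adjusted p = 0.00494) and LOC100911440 (log2 4.34, edgeR adjusted p = 0.00865). On the log2 scale Icam1 changed by 1.402 without and 1.39 with the siRNA, Mmp10 by 1.52 and 1.73, Hk2 by 1.597 and 1.90 and Nfkbia by 1.15 and 1.75, and Id3 by -0.97 and -0.83. Both effects of Cxcl1 were positive, at 0.53 and 1.08 (difference 0.55, SE 0.14, adjusted p = 0.997), and it was among the 4 genes with the smallest p for the difference.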

How the data were processed

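RNA was isolated with Trizol, per the labels' protocols. The authors deposited raw counts per gene for 15 libraries, used here unchanged. The aligner, counter, strand setting and build behind them are not known from the labels or headers. Loci without a name (0.962% to 1.3% of counts) stayed in. The deposited FPKM values were not used.

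The 12 libraries were filtered with filterByExpr by group and scaled by TMM. edgeR 4.0.16 (R 4.3.3) fitted stress, siRNA status and replicate number additively (7 residual degrees of freedom). Its robust quasi-likelihood F test was adjusted by Benjamini-Hochberg over 14023 genes and called under 0.05. The procedure was tested on simulated data, in which all groups shared their replicate effects, a simpler setting than these libraries. Replicate numbers were checked for pairing by correlating deviations from group means. Same-numbered libraries correlated at 0.258 to 0.593 within siRNA status and at 0.0331 to 0.305 across it. Without siRNA, differently numbered control and stressed libraries all correlated negatively. Deviations from a group mean cancel out within the group, so positive same-number values push these down, and they add no support. With the siRNA, libraries 2 and 3 also correlated across numbers (0.248 and 0.263), so the pairing of these numbers is unsure there. Across siRNA status, differently numbered libraries reached 0.198. Libraries of 1 group differed beyond sampling noise.

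The comparison and 42 gene lists (784 symbols, 757 matched by name and 8 by an older symbol) were chosen with earlier results of these data known, so lists carry no test. Genes were named by rule: the 5 markers, the 12 largest rises and falls among called genes that moved alike in all 6 pairs, averaged at least 2 CPM in the higher arm and had no provisional symbol, the called members of each list, the 4 smallest p of the interaction, and Ddx5. Members that did not pass were chosen after their values were seen. A few genes that the rule or the counts include are not reported here. Alternatives were other replicate blocks, all 15 libraries, RLE and total-count scaling, other filters, non-robust estimation, limma-voom (limma 3.58.1), DESeq2 1.42.0 and leaving out each library.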

Additional observations from a re-analysis of the deposited data

Results flagged for a closer look

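The log2 stress effect on Skil, which restrains SMAD signalling, was -0.57 without siRNA and 0.43 with the Ddx5 siRNA, a difference of 0.997 (SE 0.23), with all 3 pairs lower without siRNA and all 3 higher with it. The difference did not pass over all genes (edgeR adjusted p = 0.997). Skil stood at 23.0, 28.3 and 26.9 CPM in the control, 15.1, 23.6 and 14.4 CPM in stressed cells, 13.9, 21.3 and 24.0 CPM with the siRNA and 21.4, 28.6 and 29.1 CPM with both. The transcription factor Sp3 moved likewise, by -0.46 and 0.69 (log2), a difference of 1.15 (SE 0.27) that did not pass either (edgeR adjusted p = 0.997), from 7.24, 9.12 and 7.71 CPM to 4.56, 6.80 and 6.31 CPM without siRNA and from 4.97, 6.77 and 8.30 CPM to 7.82, 14.5 and 10.4 CPM with it. Both genes were among the 4 with the smallest p for the difference. They stand here because the 3 pairs without siRNA all moved down and the 3 pairs with it up. That split goes with the choice by p and is no further support for a difference.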

How the results depend on the processing

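No called gene that is named or listed changed direction under any alternative. Of 240 such genes, 148 kept their call without the replicate block, 238 with the block within siRNA status, 221 with all 15 libraries, 239 under DESeq2, 237 under limma-voom, 238 under RLE scaling, 233 under total-count scaling and 185 to 221 with 1 library left out. Without the replicate block 456 genes rose and 130 fell, and stress was called in 100 genes without siRNA and 95 with it. With the block within siRNA status 1453 rose and 1014 fell, the strata gave 1853 and 1008, and 2 genes passed for the difference between strata, Hmgcs1 and LOC100911440. DESeq2 gave 1 such gene. Leaving out each library gave 518 to 810 higher and 182 to 442 lower genes, 0 to 1 for the difference between strata (AC141521.2, without stress replicate 1), 106 to 641 called without siRNA and 75 to 317 with it. Without both Ddx5 siRNA libraries numbered 1, added after seeing the data, 1335 genes were called without siRNA and 280 with it. The cause of these differences was not tested. Genes under 0.21 CPM, 3 counts in the smallest library, are near the floor, and their folds are unsure.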

Other observations

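The genes below were chosen after their values were seen. Plau and Plat, the plasminogen activators, rose, Plau from 5.26 to 21.9 CPM (log2 2.03, SE 0.13, adjusted p = 2.92e-07) and Plat from 71.8 to 142 CPM (log2 0.99, SE 0.08, adjusted p = 1.54e-06), while the clotting initiator F3 fell (log2 -0.51, SE 0.08, adjusted p = 0.0014). Among genes that handle arginine, the citrulline-recycling Ass1 rose by 2.46 (log2, SE 0.21, adjusted p = 6.79e-06), Arg1 by 1.18 (log2, SE 0.19, adjusted p = 0.0015) and the transporter Slc7a2 by 0.82 (log2, SE 0.17, adjusted p = 0.00703), while Arg2 did not pass (log2 0.56, SE 0.30, adjusted p = 0.274). Rises also included the sterol transporters Abca1 at 0.91 (log2, SE 0.19, adjusted p = 0.0117), Abcg1 at 1.30 (log2, SE 0.25, adjusted p = 0.0128), the oxysterol hydroxylase Cyp7b1 at 1.76 (log2, SE 0.14, adjusted p = 1.59e-06) and the oxidised-lipoprotein receptor Olr1 at 2.96 (log2, SE 0.37, adjusted p = 0.00148). Cyp1b1 (log2 1.52, SE 0.20, adjusted p = 0.00259) and Cyp1a1 (log2 3.29, SE 0.67, adjusted p = 0.0182), targets of the aryl hydrocarbon receptor, rose while the receptor's own gene Ahr fell (log2 -0.82, SE 0.13, adjusted p = 0.00174). Of its other targets, Tiparp rose (log2 0.52, SE 0.14, adjusted p = 0.0428, a call lost in 10 of the 12 fits that left out 1 library), Ahrr (log2 0.67, SE 0.26, adjusted p = 0.153) and Nqo1 (log2 -0.11, SE 0.07, adjusted p = 0.38) did not pass, and the call for Cyp1a1 was lost without Ddx5 siRNA replicate 3 (adjusted p = 0.0542). The mitochondrial genes Ak4 (log2 2.68, SE 0.22, adjusted p = 6.79e-06) and Cox4i2 (log2 2.17, SE 0.28, adjusted p = 0.000495) rose. The FGF feedback inhibitor Spry1 (log2 -0.91, SE 0.10, adjusted p = 8.1e-05), the Notch ligand Jag1 (log2 -0.77, SE 0.11, adjusted p = 0.000626), Gas1 (log2 -0.96, SE 0.14, adjusted p = 0.000944) and the patterning factors Twist1 (log2 -0.42, SE 0.06, adjusted p = 0.000821) and Dlx5 (log2 -0.82, SE 0.17, adjusted p = 0.0076) fell. Outside the naming rule, the provisional locus LOC497963 ranged over 0 to 0.131 CPM without and 1.22 to 30.1 CPM with stress, and Slitrk6 over 0.403 to 1.77 CPM and 0 to 0.139 CPM.

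The 3 control siRNA libraries, which entered no comparison, are given with all 15 libraries scaled together. Id3 stood there at 121, 110.2 and 106 CPM, below the control (211, 208 and 268 CPM) and within the range of the stressed libraries (79.7 to 141 CPM). Icam1 stood at 175, 194 and 219 CPM, Nfkbia at 44.9, 48.4 and 44.2 CPM and Mmp10 at 1.44, 1.31 and 0.927 CPM, all under the lowest control library (283 to 359, 75.1 to 91.4 and 4.01 to 5.46 CPM). Hk2 stood at 31.0, 35.4 and 28.5 CPM, beside 30.2, 38.5 and 40.5 CPM in the control. No test was made of these values.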
